A study of Rattus norvegicus with 12 samples.

Results

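Of the 38804 probes on a rat array made for messenger and long non-coding RNA, 3855 (9.93%) have names that begin with ASRN, digits and the letters LNC. They were chosen by that name alone, with no measured value, and are called LNC probes below. All 3855 names have 1 form, ASRN6LNC1A followed by 9 digits and V3, each probe has 1 spot, and all 3855 are also in the authors' deposited value table. Their levels were measured in synovium (the inner lining of joints) from male rats on 12 arrays. There were 4 arrays each of normal rats (Control), of rats with collagen-induced arthritis (CIA), and of CIA rats treated with Bi Zhong Xiao Decoction (BZXD), a herbal preparation. In the CIA model, arthritis follows immunisation with collagen, and the BZXD rats carry the same disease as the CIA rats. The sources used here do not give strain, age, dose or time of treatment, nor whether RNA was pooled. The design text names 4 normal and 4 CIA rats and gives no number for BZXD.

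Long non-coding RNAs are transcripts without a recognised protein-coding frame. Some act near the gene they are made from, others hold proteins together or bind other RNAs. As a class they are known for lower levels and narrower tissue ranges than messenger RNAs. Per the labels, ribosomal RNA was removed and the remaining RNA was labelled by random priming along whole transcripts, so that transcripts without a poly(A) tail could also be labelled. The files name no gene or sequence for the LNC probes, 0 of the 3855 matched a gene symbol, and no table used here says whether each one reads a non-coding RNA. They are therefore described by their letters, against the 28287 probes of the same array whose names begin with ASRN, digits and AP (AP probes). The sources used here do not say what the AP letters stand for. The brightness of a probe depends on how well it binds as well as on its transcript, so a difference in brightness between probes is not a difference in RNA level.

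The 75th percentile of probe intensity, to which each array was scaled, was 54.3 to 69.6 on Control arrays, 91.1 to 118 on CIA arrays and 24.7 to 32.7 on BZXD arrays. Each group was scanned in 1 scan of its own, so an effect of the scan and one of the group cannot be told apart. In whole tissue, fewer cells of a type and less RNA per cell cannot be told apart either. None of 25 markers of synovial, immune, vascular, muscle, fat and cartilage cells had a probe with a name here, so the labelled tissue was not checked against its markers. BZXD replicate 2 stood apart. Over the 1089 LNC probes well above background and unmarked on all 12 arrays, its correlation with the other BZXD arrays was 0.862 to 0.879, whereas the other BZXD arrays correlated at 0.990 to 0.992 with each other. These are correlations across probes of the same arrays, which differ widely in brightness. Control and CIA arrays correlated at 0.950 to 0.991 with each other, and at 0.709 to 0.777 with BZXD arrays.

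Detection was read from the scanner software's mark for a spot well above background. It was set on 64.4%, 76.6%, 73.0% and 76.6% of LNC probes on Control replicates 1 to 4, and on 71.3%, 79.7%, 68.7% and 80.3% on the CIA replicates. On the BZXD replicates it was set on 37.9%, 42.1%, 48.3% and 44.2%. All BZXD arrays thus lay below all Control and CIA arrays, and the Control and CIA arrays overlapped. Control arrays averaged 72.7% ± 5.77, CIA arrays 75% ± 5.89 and BZXD arrays 43.1% ± 4.34 (SD, n = 4). Across the whole array the means were 73.8%, 76.1% and 50.9%.

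To set the LNC probes against AP probes of like brightness, the AP probes were weighted so that each of 20 bins of mean Control intensity held the same share of both families. With these weights the median Control value was -1.97 for both families on the scaled log2 scale, where 0 is an array's 75th percentile. Well above background were then 72.7% ± 6.01 of AP probes on Control arrays, 75.1% ± 6.35 on CIA arrays and 54.1% ± 5.46 on BZXD arrays (SD, n = 4). The gap between LNC and matched AP probes was -0.071 ± 0.661 percentage points in Control, which the matching fixes near 0, and -0.117 ± 0.512 in CIA. In BZXD it was -10.98 ± 3.88, with -8.66, -16.8, -8.84 and -9.67 on replicates 1 to 4. The BZXD gaps did not overlap with those of the 8 other arrays, which ran from -1.03 to 0.495. No test was made between the families, since probes of 1 array are not replicates. Without BZXD replicate 2, the array with the widest gap, the mean gap was -9.06. BZXD arrays also held more LNC spots marked as outliers, 0.545% to 2.10% against 0% to 0.130% on the Control and CIA arrays other than CIA replicate 3 with 1.06%. Over all probes the marked share was higher on every array. It was 0.823% to 3.29% in BZXD, 1.54% on CIA replicate 3 and 0.33% to 0.553% on the others. With marked spots counted as not well above background, the LNC share in BZXD was 41.8%.

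Across arrays, 1209 LNC probes (31.4%) were well above background on all 12 and 519 (13.5%) on none. The shares were 35.7% and 8.92% of matched AP probes and 34.8% and 9.76% of all probes. In Control 2448 LNC probes (63.5%, against 64.1% of all) were well above background on all 4 arrays and 780 (20.2% against 18.6%) on none. In CIA these numbers were 2553 (66.2% against 67.0%) and 647 (16.8% against 15.4%). In BZXD they were 1280 (33.2% against 40.3%) and 1789 (46.4% against 37.8%). The LNC probes well above background on all 8 Control and CIA arrays but on 0 BZXD arrays numbered 577 (15.0%, against 12.9% of all and 11.3% of matched AP probes). The reverse pattern, all 4 BZXD arrays and 0 of the other 8, was held by 15 LNC probes (0.389%), against 590 AP probes (2.09%, or 2.44% when matched) and 1.63% of all probes. Between the other groups, 8 LNC probes (0.208%, against 0.126% of all and 0.132% of matched AP probes) were well above background on all 4 CIA arrays and 0 Control arrays, and 0 LNC and 0 AP probes showed the opposite.

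The intensity of LNC probes was spread over a wide range on each array. On Control arrays the median LNC probe had an intensity of 14.3 to 17.4 and the 90th percentile 245 to 340. On CIA arrays the median was 22.5 to 28.0 and the 90th percentile 502 to 645. On BZXD arrays the median was 2.86 to 4.56, near the 1.01 to 1.33 of the negative control spots, and the 90th percentile 179 to 275. Matched AP probes had group mean medians of 16.41 in Control, 24.9 in CIA and 6.93 in BZXD, where the LNC probes had 16.35, 25.3 and 3.52. After scaling, the median LNC probe stood at -1.97 ± 0.045 on Control arrays, -2.09 ± 0.059 on CIA arrays and -3.12 ± 0.256 on BZXD arrays (log2, SD, n = 4). Matched AP probes stood at -1.97, -2.10 and -2.16. At the bright end the families lay closer: the LNC and matched AP 90th percentiles averaged 223 and 271 in BZXD.

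Split into 4 equal groups by Control mean, from the dimmest to the brightest, the families differed in BZXD at each dim or middling level. In the dimmest group, where 6.38% of LNC and 7.79% of AP spots were well above background in Control, 7.65% of LNC and 27.3% of AP spots were so in BZXD. In the second group it was 17.9% of LNC and 32.6% of AP spots, and in the third 52.7% and 61.9%. In the brightest group, 94.2% of LNC and 95.3% of AP spots were well above background in BZXD. In CIA the families stood at 15.5% and 16.9% in the dimmest group, 84.5% and 85.4% in the second and 99.9% each in the third. The median scaled difference of BZXD from Control was 0.514 for LNC and 0.974 for AP probes in the dimmest group, at signals mostly near background. It was -1.25 and -0.845 in the second, -1.25 and -0.794 in the third and -0.516 and -0.321 in the brightest.

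With all 4 replicates of a group, the median spread was about equal in both families. Without BZXD replicate 2 it was wider for LNC probes in BZXD. Over LNC probes that at least 4 of the 12 arrays measured well above background, Control replicates had a median SD of 0.174, CIA replicates one of 0.196 and BZXD replicates one of 0.542 (log2; 2962, 2934 and 2838 probes with a value on all 4 arrays). Matched AP probes had 0.172, 0.194 and 0.548. With normexp, which adds an offset of 50, the LNC medians were 0.0817, 0.112 and 0.091, and BZXD was no longer the widest. The median LNC intensity on BZXD arrays, 2.86 to 4.56, lay far below that offset. The effect of the offset on the SD was not tested. Without BZXD replicate 2 the BZXD medians were 0.338 for LNC and 0.292 for matched AP probes, and over probes measured on all 12 arrays 0.203 and 0.195. In Control the median SD fell from 0.445 in the dimmest group of LNC probes to 0.246, 0.143 and 0.142 in the brighter ones. In CIA it was 0.458, 0.260, 0.178 and 0.162 in the same order. The BZXD medians did not fall that way. They were 0.469, 0.554, 0.594 and 0.434, widest in the third group.

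A within-group SD of at least 1, a spread of 2-fold, was found for 75 LNC probes in Control (2.53%), 101 in CIA (3.44%) and 449 in BZXD (15.8%). The shares of matched AP probes were 2.32%, 2.78% and 17.2%. In BZXD, replicate 2 was the array farthest from the group median for 366 of the 449. In Control the farthest array was replicate 1 for 36 and replicate 3 for 31 of the 75, and in CIA it was replicate 3 for 55 and replicate 2 for 35 of the 101.

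CIA was set against Control to see which of these probes differ in arthritic joints. Of 2918 tested LNC probes, 101 rose and 230 fell (limma on the 8 arrays, Benjamini-Hochberg adjusted p under 0.05 over all 29833 tested probes). The 331 are 11.3% of the LNC probes, where 10.6% of all tested probes were called. Rises made up 3.46% of LNC probes against 2.60% of all and 2.33% of matched AP probes, and falls 7.88% against 7.99% and 8.21%. The LNC median was -0.05 on the log2 scale, beside -0.08 over all tested probes and -0.09 over matched AP probes. Most calls were small: 78 of the 101 rises and 212 of the 230 falls were under 2-fold, 5 rises and 2 falls were 4-fold or more. Calls over all probes were not counted by size. The 10th and 90th percentiles of the log2 difference were -0.526 and 0.415 over tested LNC probes, and -0.515 and 0.375 over all tested probes. Over the 2347 LNC probes well above background on all 8 arrays, 84 rose (3.58%, against 2.67% of all such probes) and 179 fell (7.63% against 7.97%). The groups did not overlap at 667 LNC probes (22.9%, against 21.5% of all tested probes).

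The number of calls fell with single arrays left out, among LNC probes and over all tested probes alike. Without Control replicate 4 it was 7, or 0.24% of LNC probes against 0.312% of all. Without Control replicates 2, 3 and 1 it was 80, 96 and 189, or 2.74%, 3.29% and 6.48% of LNC probes against 2.46%, 2.94% and 5.95% of all. Without CIA replicates 1 to 4 it was 117, 132, 244 and 240, or 4.01%, 4.52%, 8.36% and 8.22% against 4%, 4.54%, 7.27% and 7.11%. In 1 fit over all 12 arrays, whose shared spread includes the wider BZXD group, 0 LNC probes were called by limma, 348 had an unadjusted p under 0.05, and 4 of all tested probes were called. The share of rises among the calls, 30.5% for LNC and 24.5% for all probes, moved with the settings. It was 63.6% (91 rises and 52 falls) against 57.8% with arrays scaled to their median, and 46.8% against 38.1% with quantile normalization. It was 44.3% against 34% in the deposited value table, and 18.6% against 14.3% with the normexp alternative described among the methods.

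The LNC probes named below are, in each comparison, the 2 largest rises and falls among those called, well above background on all 8 arrays and without overlap between the groups. In CIA, ASRN6LNC1A100006605V3 stood at 3.27, 2.33, 2.33 and 3.13 on replicates 1 to 4, and at 0.369, -0.373, -0.346 and -0.288 in Control. It rose by 2.92 ± 0.27 on the log2 scale, or 7.59-fold (SE, n = 4 per group, limma adjusted p = 0.00452). On the BZXD arrays it was at 0.710 on replicate 2 and between -4.89 and -4.66 on the others, where it was not well above background.

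ASRN6LNC1A100002420V3 stood at 4.43, 3.78, 4.42 and 4.40 in CIA and 2.59, 1.87, 1.90 and 1.75 in Control. Every CIA array was above every Control array, and the rise was 2.23 ± 0.22 (4.69-fold, limma adjusted p = 0.00627). Both rises kept their call with each of the 8 arrays left out. With normexp, that of ASRN6LNC1A100006605V3 was 4.89-fold.

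ASRN6LNC1A100026743V3 stood at 2.93, 2.97, 2.98 and 3.20 in CIA and 4.86, 4.42, 6.60 and 5.54 in Control, where it varied more (SD 0.948 against 0.124). It fell by 2.33 ± 0.41 (5.04-fold, limma adjusted p = 0.0209), and the call was lost without Control replicate 4. ASRN6LNC1A100003394V3 stood at 4.97, 4.52, 4.99 and 5.26 in CIA and 6.72, 5.93, 8.21 and 6.80 in Control. It fell by 1.98 ± 0.43 (3.95-fold, limma adjusted p = 0.0303), and the call was lost without Control replicate 1 or 4 or CIA replicate 1, 2 or 3. For both probes Control replicate 3 was the highest array. In the fit over 12 arrays none of these 4 probes was called, with limma adjusted p of 0.107 to 0.410.

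BZXD was set against CIA to see what differed in arthritic rats given the decoction. Of 2654 tested LNC probes, 535 rose and 1394 fell (limma on the 8 arrays, adjusted over 28319 probes). The 1929 are 72.7% of the LNC probes, where 71.8% of all tested probes were called. By direction, 20.2% of LNC probes rose against 27.6% of all and 28.5% of matched AP probes, and 52.5% fell against 44.2% and 42.4%. The LNC median was -0.95, beside -0.54 over all tested probes and -0.43 over matched AP probes. These values include probes that passed the filter only through CIA or only through BZXD. All 4 BZXD arrays and 0 of the other 8 were well above background for 15 LNC probes (0.389%) and 590 AP probes (2.09%). Among tested probes in the dimmest of 4 Control intensity groups, 19.1% of LNC and 43.0% of AP probes rose. For 656 of the falling LNC probes no BZXD array had a signal well above background. Over the whole array, 46.4% of LNC, 32.4% of AP and 37.8% of all probes were well above background on 0 BZXD arrays. For 513 of the 656 a fall of over 1-fold could be bounded, of at least 2-fold for 209 and at least 4-fold for 51, and at most 12.5-fold. Among the rises, for 18 LNC probes no CIA array had a signal well above background, and their bounds were all at least 4-fold, with a median of 13 and a highest value of 69.1. Neither these counts nor the bounds were made over all tested probes. For such a bound the brighter group's mean was divided by the dimmer group's floor, which on each array was either the probe's own signal or, if higher, the faintest signal that still counted as well above background.

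Where both groups were measured the families lay closer, though keeping only such probes leaves out those at background in BZXD. Over the 1110 LNC probes well above background on all 8 arrays, 371 rose and 389 fell, or 33.4% and 35.0%, and the share called was 68.5% against 68.6% of all such probes. All such probes gave 37.8% and 30.9%, and AP probes, here not matched, 39.7% and 29.0%. The medians were -0.05 for LNC, 0.19 for all and 0.28 for unmatched AP probes. To matched AP probes the LNC median had a gap of -0.192 here, and of -0.517 over all tested LNC probes. Of the LNC calls, 310 of the rises and 297 of the falls were at least 2-fold, and 176 and 98 at least 4-fold. Calls over all such probes were not counted by size. The 10th and 90th percentiles of the log2 difference were -1.946 and 2.704 over these LNC probes, and -1.904 and 2.843 over all such probes. With the normexp correction and its offset of 50, the direction turned, to 69.9% rises among LNC calls and 73.6% among calls over all tested probes. The median was then 0.35 over tested LNC probes and 0.425 over all tested probes. That alternative also took another spot signal and added an offset, and which of these changes turned the direction was not tested. Their median lay below that of all tested probes both ways, with gaps of -0.415 and -0.070. The groups did not overlap at 1817 LNC probes (68.5%), against 68.9% of all tested probes. Of the 1817 LNC probes 1331 were lower in BZXD, and of the 19519 such probes over all tested 12105 were.

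ASRN6LNC1A100004144V3 stood at 8.38, 8.97, 8.72 and 8.50 in BZXD and at -0.544, 0.495, -0.383 and 0.089 in CIA, with no overlap. It rose by 8.73 ± 0.27, or 424-fold (SE, n = 4 per group, limma adjusted p = 1.03e-06). In Control it varied, from 0.244 on replicate 1 to 3.56 on replicate 3. ASRN6LNC1A100000586V3 stood at 5.28, 6.75, 5.75 and 5.66 in BZXD and between -2.97 and -2.20 in CIA. It rose by 8.30 ± 0.33, or 316-fold (limma adjusted p = 1.21e-06). Its Control values ran from -2.36 to 0.421, and were again highest on replicates 3 and 4. Both rises kept their call under all 11 other settings and with each of the 8 arrays left out, at 7.21 to 9.07 and 5.54 to 8.65 on the log2 scale. Their folds were lowest with normexp, at 148 and 46.7.

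ASRN6LNC1A100001228V3 stood at -1.13, -2.29, -1.56 and -1.03 in BZXD and at 2.39, 2.68, 2.53 and 2.77 in CIA. It fell by 4.10 ± 0.29, or 17.1-fold (limma adjusted p = 6.72e-06). With normexp the fall was 5.09-fold. Its Control values of 2.43 to 2.67 lay close to those of CIA. ASRN6LNC1A100515865V3 varied widely in CIA, at 9.42, 5.85, 9.70 and 8.54, and stood at 5.85, 0.666, 5.75 and 5.83 in BZXD. It fell by 3.86 ± 1.33 (14.5-fold, limma adjusted p = 0.0281), and the call was lost without CIA replicate 1, 3 or 4. The size of the fall moved with single arrays, to 5.94-fold without BZXD replicate 2 and 26-fold without CIA replicate 2. It was 7.14-fold with array weights, 28.5-fold with quantile normalization and 30-fold in the deposited table. The nearest arrays of the 2 groups nearly met, at 5.852 on CIA replicate 2 and 5.845 on BZXD replicate 1. The 2 probes named as rises in CIA over Control gave values of -6.18 ± 1.20 and -5.74 ± 1.12 for BZXD against CIA. These 2 probes were well above background on 1 and 2 of the 4 BZXD arrays. The 2 named as falls, ASRN6LNC1A100026743V3 and ASRN6LNC1A100003394V3, were higher in BZXD than in CIA, by 1.11 ± 0.19 and 3.48 ± 0.71 (limma adjusted p = 0.00109 and 0.0021). Both were well above background on all 4 BZXD arrays, but the first had no value in use on BZXD replicate 2. All of these comparisons share the CIA arrays.

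BZXD was also set against Control, treated rats against normal ones. Of 2588 tested LNC probes, 532 rose and 1382 fell (limma on the 8 arrays, adjusted over 27710 probes). The 1914 are 74.0% of the LNC probes, where 73.4% of all tested probes were called. In LNC probes 20.6% rose and 53.4% fell, against 28.0% and 45.4% of all and 27.9% and 44.7% of matched AP probes. The median was -0.96 for LNC, -0.55 for all and -0.51 for matched AP probes. These values also include probes that passed the filter only through BZXD or only through Control. Of the falls, 626 were at LNC probes that no BZXD array measured well above background, and 242 of these could be bounded at 2-fold or more. Such counts were not made over all tested probes. The groups did not overlap at 1823 LNC probes, or 70.4%, against 71.0% of all tested probes. Over the 1097 LNC probes well above background on all 8 arrays, 360 rose and 389 fell (32.8% and 35.5%), and 68.3% were called against 69.0% of all such probes. By direction all such probes gave 36.9% and 32.1%. The LNC median was -0.03 against 0.15. With the normexp correction 65.9% of LNC calls were rises, against 69.9% of the calls over all tested probes. The LNC median was then 0.18, beside 0.23 over all tested probes. The comparison shares its BZXD arrays with the one before it.

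The largest rises were the same 2 probes as against CIA. ASRN6LNC1A100000586V3 rose by 7.07 ± 0.64 (134-fold, limma adjusted p = 2.28e-05) and ASRN6LNC1A100004144V3 by 6.87 ± 0.70 (117-fold, limma adjusted p = 3.9e-05). The largest fall was at ASRN6LNC1A100005662V3, with 0.698, -0.785, 0.578 and 0.378 in BZXD and 3.75, 4.76, 4.97 and 4.82 in Control. It fell by 4.36 ± 0.40, or 20.5-fold (limma adjusted p = 2.31e-05). Its CIA values differed widely, from 0.061 on replicate 3 to 4.86 on replicate 2. ASRN6LNC1A100001228V3 fell by 4.06 ± 0.28, or 16.7-fold (limma adjusted p = 7e-06). All 4 kept their call under the 11 other settings and with each of the 8 arrays left out, with sizes that moved. In log2, ASRN6LNC1A100000586V3 ran from 4.90 to 7.62 and ASRN6LNC1A100004144V3 from 5.49 to 7.47, the latter without Control replicate 3 (177-fold). The falls ran from -5.13 to -3.60 for ASRN6LNC1A100005662V3 and from -4.34 to -2.13 for ASRN6LNC1A100001228V3, which was 4.38-fold lower with normexp.

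The digits in the names were compared with the values too. Their last part ran from 28 to 730739, and 2978 of the 3855 probes had a number under 10000. Probes with a number under 10000 were dimmer in Control (median intensity 14.0 against 23.7) and less often well above background, at 69.9% ± 5.90 against 82.0% ± 5.34 in Control and 40.9% ± 4.20 against 50.6% ± 4.87 in BZXD (SD, n = 4). Against Control, their median difference in BZXD was -0.97, and that of the others -0.96. For CIA against Control the medians were -0.04 and -0.11, and for BZXD against CIA -0.97 and -0.87. Of the CIA calls against Control, 88 of the 101 rises and 162 of the 230 falls were at low numbers, where 2173 of the 2918 tested probes were. The 2281 pairs of LNC probes with consecutive numbers lay a median of 157 rows apart on the array. Their Control levels had a correlation of 0.0043 across pairs. Among consecutive pairs tested in both members, the log2 differences correlated at -0.011 for CIA against Control (1220 pairs), 0.011 for BZXD against CIA (1003 pairs) and 0.012 for BZXD against Control (947 pairs). All pairs share the same arrays, and such weak correlations are no finding. For 488 numbers that an AP probe also carries, the Control levels of the pair correlated at 0.065.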

How the data were processed

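The 12 arrays were read, 4 per group. Per the file headers, Agilent Feature Extraction 11.0.1.1 made the authors' spot intensity values (1 colour, background subtracted) and the marks for spots well above background. The authors' deposited value table holds normalized log2 values and was used only as an alternative; its scaling is not given in the sources used here. Here the log2 of the processed intensity, without spots marked as outliers, was reduced by each array's 75th percentile over non-control probes. Probes that at least 4 of the 8 compared arrays measured well above background were tested with limma 3.58.1 (R 4.3.3) on those 8 arrays, with Benjamini-Hochberg adjustment over all tested probes and a threshold of 0.05. The fit left out the third group because the BZXD spread was wider on this scale. Tables were made with Python 3.11.15, pandas 2.3.3 and numpy 2.4.6. AP probes were matched in 20 bins of Control mean intensity. The normexp alternative (offset 50) used median spot signals, since the mean signal is not a column of these files. The fit was tested on simulated data.

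In each comparison the 2 largest rises and falls were named among LNC probes called, well above background on all 8 arrays and without overlap between the groups. The members, lists and rules were chosen with earlier results of these data known. The labels give the arrays of a group as separate samples and do not say whether each is 1 rat, so p-values measure only the spread between these arrays, whose number limits the precision. Replicate numbers come from the titles. Same-numbered Control and CIA arrays deviated together from their group means (correlations of 0.105 to 0.850), which by the rule used treats them as pairs, although only replicate 2 correlated best with its own number. The main fits held no replicate block, so the calls and p-values given above are unpaired. With a replicate block, 296 LNC probes were called for CIA against Control (10.1%, against 8.98% of all). Of these calls 38.5% were rises, against 33.3% of all calls. With BZXD, replicate 4 gave -0.133 (CIA) and -0.262 (Control), so those numbers were not taken as pairs.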

Additional observations from a re-analysis of the deposited data

Results flagged for a closer look

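Single arrays far from the other 3 of their group were looked for in 38 groups of values, by the gap to the nearest array as a share of the whole range (Dixon's critical value). Chance marks about 1 of 20 groups, and 6 were found, with shares of 0.864 to 0.981. BZXD replicate 2 accounts for 4 of them. Its gap between LNC and matched AP probes in the share well above background was -16.8 percentage points, where the other BZXD arrays had -9.67 to -8.66. ASRN6LNC1A100006605V3 stood at 0.71 on that array and at -4.89 to -4.66 on the others (log2, relative to the 75th percentile). ASRN6LNC1A100003394V3 stood at 10.8 against 7.36 to 7.83, and ASRN6LNC1A100515865V3 at 0.666 against 5.75 to 5.84. In the remaining cases, ASRN6LNC1A100006605V3 stood at 0.369 on Control replicate 1 against -0.373 to -0.288, and ASRN6LNC1A100002420V3 at 3.78 on CIA replicate 2 against 4.40 to 4.43. The cause was not tested.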

How the results depend on the processing

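LNC calls for CIA against Control (331) were 1611 with normexp (55.2% of LNC probes, 55.4% of all), 143 with median scaling (4.9% and 4.01%), 537 with array weights (18.4% and 17.1%) and 0 in 1 limma fit over 12 arrays (348 at an unadjusted p under 0.05; 0.0134% of all called), and 7 to 244 with 1 array left out. Tested alone, the 1110 and 1097 LNC probes measured on all 8 arrays gave 762 BZXD calls against CIA (68.6%, 69.4% of all) and 756 against Control (68.9%, 69.8% of all), where the fit over more probes called 760 and 749 of them. With 1 array left out, BZXD calls against CIA were 1756 to 2160 (66.2% to 81.4% of LNC probes, 66.1% to 81.3% of all). Against Control they were 1760 to 2165 (68.0% to 83.7% of LNC probes, 67.9% to 83.7% of all). The LNC median for CIA against Control turned to 0.059 with median scaling. It was -0.145 with normexp, -0.012 with quantile normalization and -0.100 with the percentile over probes measured on all 12 arrays. In the deposited table it was -0.018, and without a filter -0.103. In the main fit with 1 array left out it was -0.070 to -0.040. For BZXD against CIA and Control it turned to 0.354 and 0.181 with normexp. It was -0.601 and -0.505 with median scaling, and -1.179 and -1.242 with the percentile over measured probes. In the deposited table it was -0.642 and -0.666, and without a filter -0.450 and -0.543. Over probes measured on all 8 arrays it was -0.050 and -0.027. In the main fit with 1 array left out it was -1.007 to -0.842 and -1.038 to -0.872. By the positive-and-significant mark, the LNC share detected in Control, CIA and BZXD was 90.7%, 90.4% and 65.4%. Above the negative controls it was 90.1%, 90% and 61.9%. By the mark for well above background it was 71.3% to 75.4%, 73.2% to 77.1% and 41.4% to 44.9% with 1 array left out. The median SD was 0.0817, 0.112 and 0.0910 with normexp, 0.136 and 0.159 in Control and CIA over probes measured on all 12 arrays, and 0.141 to 0.187, 0.173 to 0.2 and 0.338 to 0.593 with 1 array left out. Matching on the 12-array mean gave detection gaps of 3.44 in Control and 3.46 in CIA, where BZXD stayed below 0 in all 5 settings, at -11.1 to -7.50. With the main matching and 1 array left out, the gaps were -0.260 to 0.247 in Control, -0.291 to 0.0765 in CIA and -11.8 to -9.06 in BZXD. The gap in median difference to matched AP probes was 0.016 with normexp for CIA against Control. Under the main settings with 1 array left out it was 0.033 to 0.039. For BZXD against CIA and Control it was -0.058 and -0.036 with normexp, and -0.221 and -0.184 in the deposited table. Over probes measured on all 8 arrays it was -0.192 and -0.142. Under the main settings with 1 array left out it was -0.547 to -0.437 and -0.499 to -0.380. With the replicate block, LNC calls were 296 for CIA against Control (10.1%, 8.98% of all). They were 1895 for BZXD against CIA (71.4%, 70.7% of all) and 1850 for BZXD against Control (71.5%, 71.0% of all). A block for scan had no fit, as each scan holds 1 group. On BZXD arrays, signal near background limits what can be measured. The cause of these changes was not tested.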
